A study of Mus musculus with 12 samples.

Results

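B cell identity and receptor signalling genes were followed across lung RNA-seq libraries of mice treated with busulfan, with alginate oligosaccharides (AOS), with both or with nothing. The set holds 31 genes, taken by gene symbol from the 19726 genes of the deposited expression table, and all 31 passed the filter on low counts that left 15863 genes for testing. From textbook knowledge of where each gene is expressed, 17 members were classed as B-restricted and 14 as broadly expressed, meaning that cells other than B cells also make them in quantity. Lungs of the busulfan + AOS group came from animals given busulfan once at 40 mg/kg, an alkylating drug that is toxic to bone marrow, and then AOS, sugar chains from brown seaweed, at 10 mg/kg for 5 weeks. Busulfan lungs came from animals given busulfan alone at that dose, AOS lungs from animals given AOS alone at that dose and duration, and control lungs from untreated animals. Each group had 3 libraries. The strain is labelled IRC, and no age, sex or time from the busulfan dose to sampling is given. The tissue field reads "Cells", while the titles and the protocol name lung, and lung epithelium markers summed to 41168 to 75252 CPM (read counts scaled to library size) in the 12 libraries. Nothing in the labels states that the 3 libraries per group are separate animals, so p-values measure the spread between these libraries. In whole lung, fewer B cells and less RNA per B cell cannot be told apart.

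B cells recognise antigen through a membrane immunoglobulin that signals by way of the paired chains encoded by Cd79a and Cd79b. Antigen binding activates kinases of the Src family, Syk and Btk, and the adaptor Blnk brings Btk to phospholipase C gamma 2, which raises calcium and activates protein kinase C and Ras guanine exchange factors. The transcription factors Ebf1 and Pax5 set up and hold the B lineage programme, and lung holds circulating and resident B cells among many other cell types that use parts of the same signalling machinery.

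Promoter sequences are shown for 3 B-restricted members that were lower after busulfan and for 2 broadly expressed signalling members whose change did not pass the test. The sequences are from RefSeq (GRCm38.p6), read 5′ to 3′ on the gene's strand, and stop before the first annotated exon. Cd79a is at chr7:24897247-24897380 on the plus strand, Pax5 at chr4:44710695-44710944 on the minus strand and Tnfrsf13c at chr15:82224381-82224630 on the minus strand. Swap70 is at chr7:110221453-110221702 and Plcg2 at chr8:117498025-117498274, both on the plus strand. Capitals mark matches, on either strand, to 4 short motifs: the octamer ATGCAAAT, the paired half-site CCCNNGGG of Ebf1, the ETS core GAGGAA and the E-box CAGGTG. The Pax5 stretch holds none of them.
Cd79a: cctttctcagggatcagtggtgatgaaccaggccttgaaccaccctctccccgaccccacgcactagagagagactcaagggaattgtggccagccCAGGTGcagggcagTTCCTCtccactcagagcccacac
Pax5: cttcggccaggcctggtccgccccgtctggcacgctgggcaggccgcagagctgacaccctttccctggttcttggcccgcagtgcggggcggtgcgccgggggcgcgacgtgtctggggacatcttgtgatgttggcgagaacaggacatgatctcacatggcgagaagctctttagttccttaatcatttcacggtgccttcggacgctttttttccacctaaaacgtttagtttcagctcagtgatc
Tnfrsf13c: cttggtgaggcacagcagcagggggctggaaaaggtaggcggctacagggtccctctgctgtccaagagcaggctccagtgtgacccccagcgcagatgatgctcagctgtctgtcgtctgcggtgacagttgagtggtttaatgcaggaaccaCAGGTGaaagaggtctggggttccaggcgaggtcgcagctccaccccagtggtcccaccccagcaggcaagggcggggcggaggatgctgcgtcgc
Swap70: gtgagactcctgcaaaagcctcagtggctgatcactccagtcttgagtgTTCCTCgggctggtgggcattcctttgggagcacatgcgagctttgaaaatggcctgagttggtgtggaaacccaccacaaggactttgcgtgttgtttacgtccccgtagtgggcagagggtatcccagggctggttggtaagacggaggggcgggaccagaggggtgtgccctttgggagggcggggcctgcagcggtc
Plcg2: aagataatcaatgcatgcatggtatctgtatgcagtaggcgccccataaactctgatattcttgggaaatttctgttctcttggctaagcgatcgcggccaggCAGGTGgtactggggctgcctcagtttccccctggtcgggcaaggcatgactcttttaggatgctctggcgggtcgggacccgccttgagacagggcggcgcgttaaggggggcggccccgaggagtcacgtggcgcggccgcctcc

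Over the full RefSeq promoter windows, which run past the start site, sequences were matched for 14 B-restricted genes (17 windows) and 12 broadly expressed genes (16 windows). The E-box was in 7 of the 17 B-restricted windows, 6 of the 16 broadly expressed windows and 20.2% of all 32851 windows. The ETS core was in 6 of 17, 7 of 16 and 28.3%. The half-site pair was in 3 of 17 (Cd22, Spib and Bank1), 0 of 16 and 13.7%, and the octamer was in the window of Vpreb3, that of Blnk and 1.74% of all. A match is given as a description of these letters only.

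On the FPKM scale, which corrects for transcript length, the 31 members spanned from 40.4 ± 2.10 FPKM for Rasgrp3 to 2.07 ± 0.598 FPKM for Bcl11a in control lungs (SD, n = 3). Cd79a stood at 36.9 ± 12.5 FPKM, next to Swap70 at 30.4 ± 2.30 FPKM, and these neighbours did not differ beyond their spread. Cd37 (24.8 ± 6.44 FPKM) and Cd79b (24.6 ± 9.44 FPKM) followed, then Ly6d (15.1 ± 1.86 FPKM) and Ms4a1 (13.6 ± 6.75 FPKM). All other members were at or under 10.2 FPKM in control lungs. In busulfan + AOS lungs Rasgrp3 (36.7 ± 2.89 FPKM) and Swap70 (29.2 ± 2.65 FPKM) led the order, and Cd79a had 8.35 ± 3.13 FPKM. In busulfan lungs Rasgrp3 had 32.01 ± 6.82 FPKM and Swap70 27.7 ± 0.970 FPKM. The defining B cell transcripts were thus present in every library. Immunoglobulin genes were not analysed here.

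Busulfan was followed by lower B cell transcripts, and the fall was deep in the B-restricted class and shallow or undetected in much of the broadly expressed class. Averaged over animals with and without AOS, 21 of the 31 members were called lower and 0 higher, by edgeR's quasi-likelihood test at a Benjamini-Hochberg adjusted p under 0.05, against 4.81% of all genes tested called lower and 7.02% higher. Over all genes 763 were lower and 1114 higher, and upper-quartile scaling turned this split to 1092 lower and 767 higher while leaving the 21 members lower. The calls took in 15 of 17 B-restricted members and 6 of 14 broadly expressed ones. The median log2 fold change was -1.58 over the 17 B-restricted members, -0.47 over the broadly expressed members and -0.01 over all genes tested. No test of the difference between the classes was made, because they were drawn up with earlier results of these data known. In 19 members, 14 B-restricted and 5 broadly expressed, each of the 6 libraries with busulfan was below each of the 6 without it, a pattern seen in 2.61% of all genes tested. All busulfan libraries were below all controls in 21 members (11.3% of all genes), and all busulfan + AOS libraries below all AOS libraries in 22 (12.8%).

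**Figure D1:**
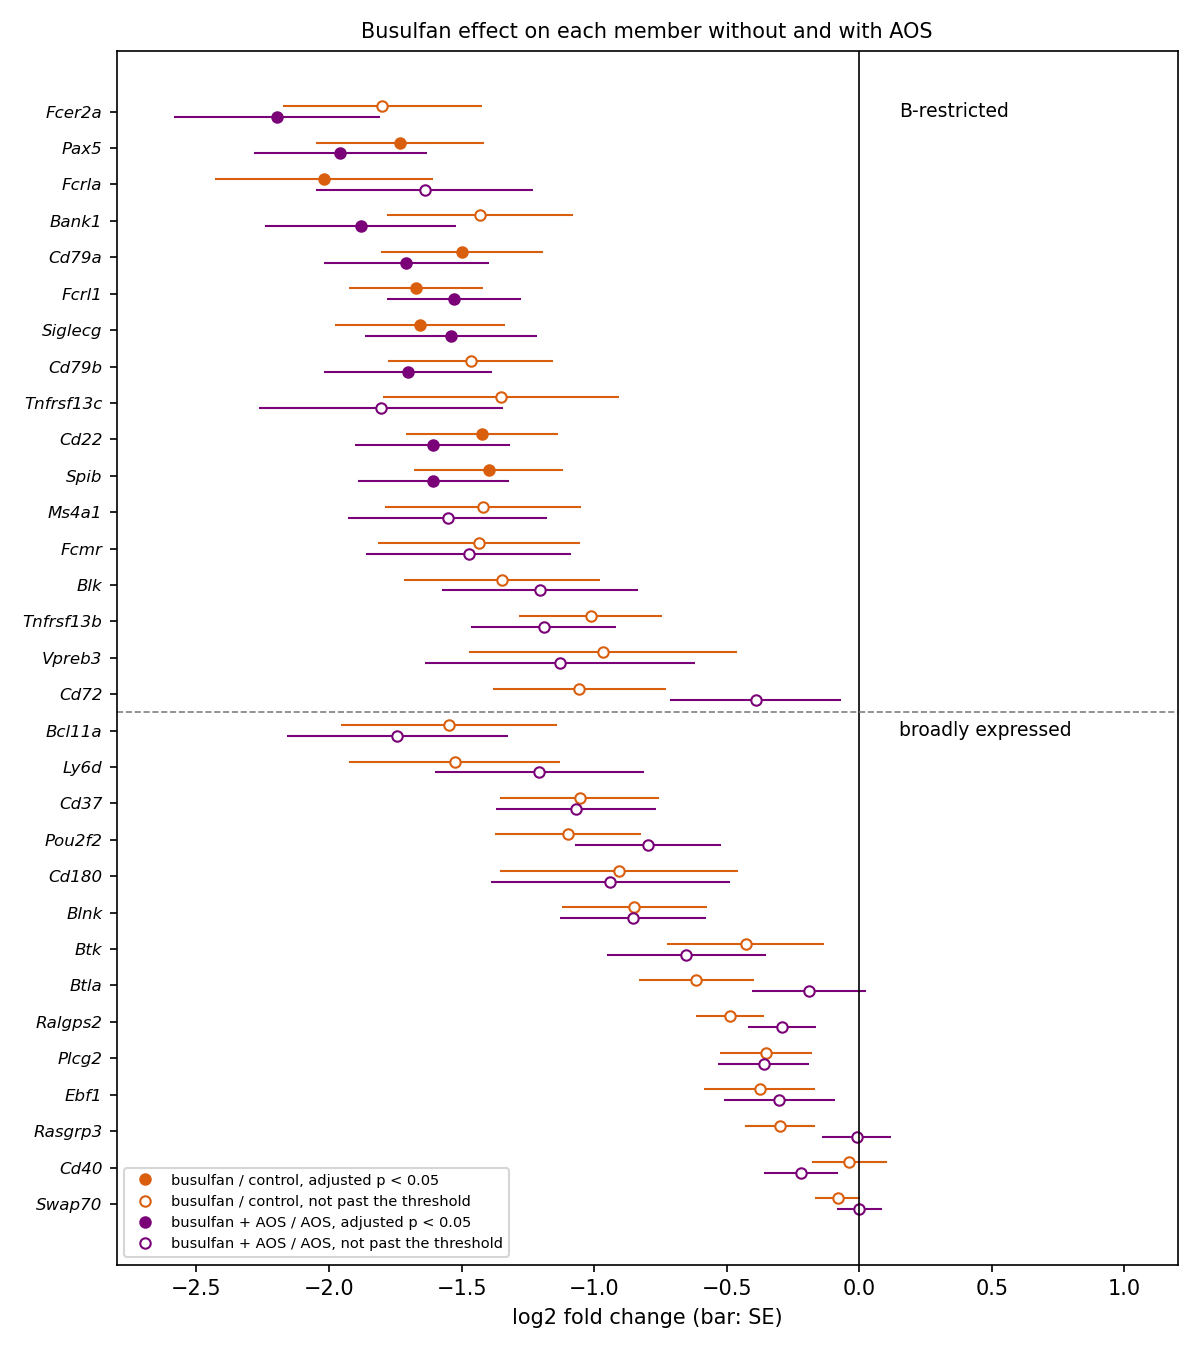
Log2 fold change (x axis) of each of the 31 members (y axis) for busulfan + AOS over AOS and busulfan over control, with the SE as a bar and filled points for an adjusted p under 0.05 by edgeR. The 17 B-restricted members lie left of 0 in both comparisons, and the broadly expressed members run from Bcl11a, lower by more than 1 log2 unit, to Swap70 near 0.

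The 2 comparisons that make up this average share no library. Both came from a single fit of all 12 libraries with a shared estimate of the spread, so their calls were not independent. In busulfan + AOS against AOS lungs 9 members were lower, all B-restricted, and 0 higher (all genes: 0.744% lower, 1.56% higher): Cd79a, Cd79b, Pax5, Cd22, Fcer2a, Spib, Bank1, Fcrl1 and Siglecg. In busulfan against control lungs 7 were lower, also all B-restricted, and 0 higher (all genes: 0.479% lower, 0.731% higher): Cd79a, Pax5, Cd22, Spib, Fcrla, Fcrl1 and Siglecg. Cd79a, Pax5, Cd22, Spib, Fcrl1 and Siglecg were called in both. The median log2 fold change of the B-restricted members was -1.61 with AOS and -1.43 without it, and that of the broadly expressed members was -0.51 and -0.55. These calls depended on single libraries. The count of 9 became 0 when any of AOS replicates 1 and 3 and busulfan + AOS replicates 1 and 2 was left out, and 3 when AOS replicate 2 was. The count of 7 became 0 when any of busulfan replicates 2 and 3 and control replicates 2 and 3 was left out. It became 1 when any of busulfan + AOS replicate 2 and AOS replicates 1 and 2 was left out, 2 when AOS replicate 3 was and 3 when busulfan replicate 1 was. DESeq2 called 18 (15 B-restricted and 3 broadly expressed) and 20 (15 B-restricted and 5 broadly expressed). The calls of limma-voom were 2 and 1, all B-restricted. The average was steadier, with 19 to 24 members lower in the 12 fits that left out a library.

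Summed over the 17 B-restricted members, the level was 50.1, 66.9 and 86.6 CPM in busulfan + AOS lungs and 114, 78.5 and 90.5 CPM in busulfan lungs. It was 232, 167 and 209 CPM in AOS lungs and 158, 328 and 295 CPM in control lungs. The busulfan + AOS libraries were all below the AOS libraries and the busulfan libraries all below the control libraries. Mean sums were 67.9 ± 18.3 CPM in busulfan + AOS, 94.4 ± 18.2 CPM in busulfan, 203 ± 32.5 CPM in AOS and 261 ± 90.0 CPM in control lungs (SD, n = 3 each), so that 33.5% of the AOS level and 36.2% of the control level remained. The 14 broadly expressed members summed to 426 ± 33.8, 400.2 ± 46.9, 488 ± 11.0 and 519 ± 50.2 CPM in the same order of groups, leaving 87.3% and 77.1%. Rasgrp3 and Swap70 made up most of that second sum.

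**Figure D2:**
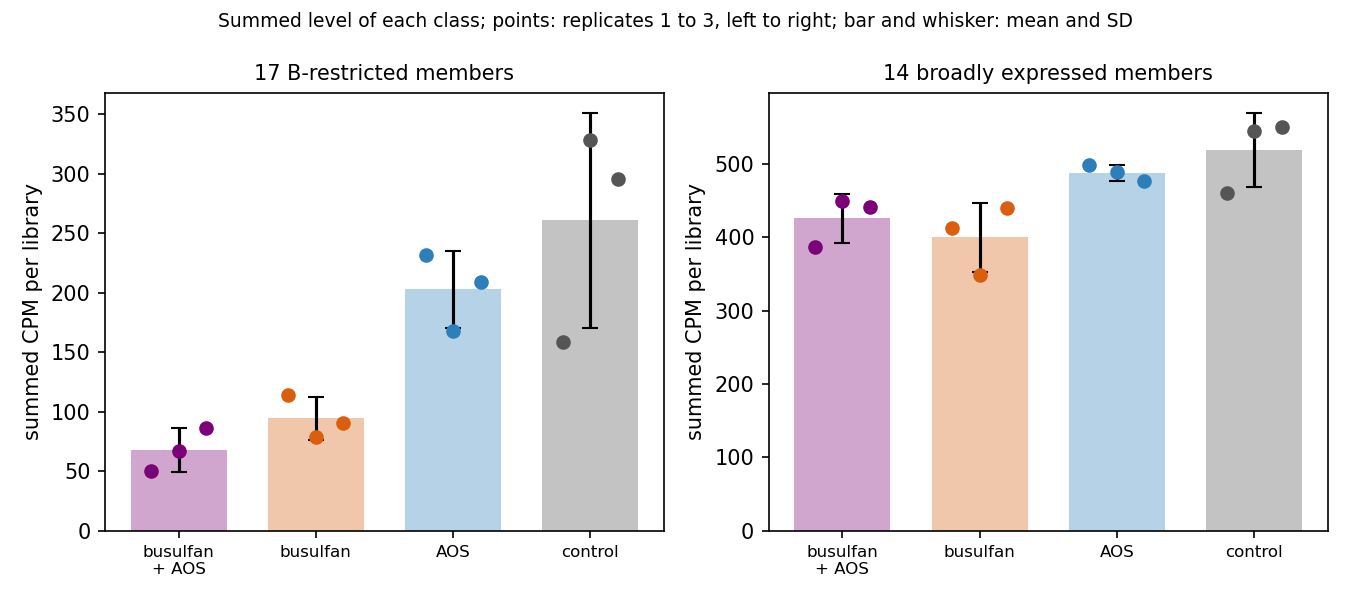
Summed CPM per library (y axis) of the 17 B-restricted members (left) and the 14 broadly expressed members (right) in busulfan + AOS, busulfan, AOS and control lungs. Points are replicates 1 to 3, and bars and whiskers the mean and SD. The B-restricted sums with busulfan reach at most 114 CPM and those without it start at 158 CPM.

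Among the transcription factors, Pax5, which holds B cell identity (chr4:44524748-44710694), was among the members with the deepest change. It had 1.75, 2.21 and 2.71 CPM in busulfan + AOS lungs, 4.78, 3.10 and 3.80 CPM in busulfan lungs, 9.33, 6.97 and 9.73 CPM in AOS lungs and 7.05, 14.7 and 17.1 CPM in control lungs. All 6 libraries with busulfan were below the other 6, and control replicate 1 was well under its group. The average change was -1.84 on the log2 scale (SE 0.23, 3.59-fold lower, edgeR adjusted p = 0.00174). Spib, an ETS factor of B cells and plasmacytoid dendritic cells, fell by 1.50 (SE 0.20, edgeR adjusted p = 0.00250). Spib was classed as B-restricted, while Bcl11a, also made in both cell types, was classed as broadly expressed. The border between the classes is thus not sharp.

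The 3 broadly expressed factors gave a graded picture. Bcl11a, a zinc finger repressor needed for B cell development and also made in plasmacytoid dendritic cells, had 0.814, 2.27 and 2.30 CPM in busulfan + AOS, 4.12, 1.76 and 2.21 CPM in busulfan, 6.72, 5.69 and 5.69 CPM in AOS and 5.30, 9.43 and 8.99 CPM in control lungs. Its libraries with and without busulfan did not overlap, and it fell as deeply as the B-restricted class, by 1.64 (SE 0.29, adjusted p = 0.00787). Pou2f2, the octamer-binding factor of B cells that monocytes also express, fell by 0.95 (SE 0.19, adjusted p = 0.0138). Ebf1, which starts the B lineage and is also made in fat and stromal cells, stood at 19.1 ± 1.69 CPM in busulfan + AOS, 17.8 ± 2.40 CPM in busulfan, 23.5 ± 6.12 CPM in AOS and 23.2 ± 5.44 CPM in control lungs (-0.34, SE 0.15, adjusted p = 0.158). Its highest value, 30.4 CPM, was in AOS replicate 1, where fat cell markers summed to 1044 CPM, against 12.3 to 61.0 CPM in the libraries with busulfan and the controls. AOS replicate 2 had the next highest fat cell sum, 179 CPM, with 21.6 CPM of Ebf1, below the 25.6 and 27.0 CPM of control replicates 2 and 3, and AOS replicate 3 had 39.2 CPM of fat cell markers and 18.6 CPM of Ebf1. The part of fat tissue in the Ebf1 levels was not tested.

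**Figure D3:**
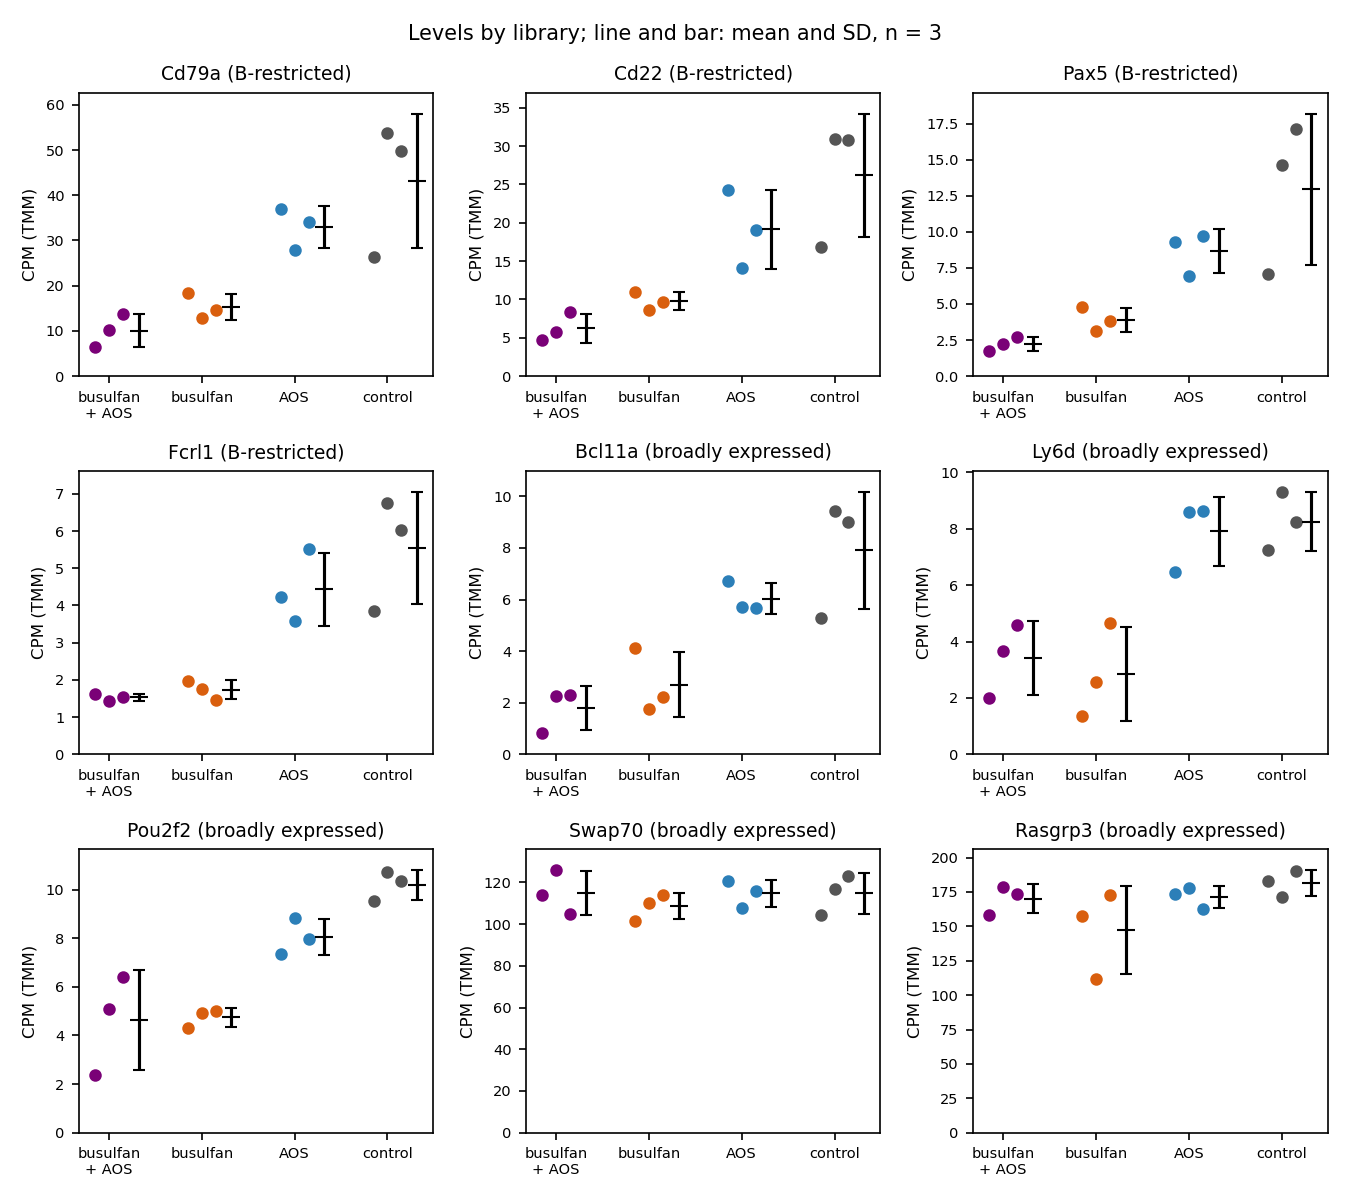
CPM (y axis, from 0) of 4 B-restricted members (Cd79a, Cd22, Pax5 and Fcrl1) and 5 broadly expressed members in each library of the busulfan + AOS, busulfan, AOS and control groups, with the mean and SD at the right of each group. In the panels of the B-restricted members, Bcl11a, Ly6d and Pou2f2 the libraries with busulfan lie below all others, and in those of Swap70 and Rasgrp3 the groups overlap.

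The signalling chains of the receptor itself fell together. Cd79a (chr7:24897497-24901858) had 6.32, 10.2 and 13.7 CPM in busulfan + AOS lungs and 18.5, 12.8 and 14.6 CPM in busulfan lungs. In AOS lungs it had 37.0, 27.9 and 34.0 CPM and in control lungs 26.3, 53.8 and 49.7 CPM. The lowest library without busulfan, control replicate 1, was above the highest with it. Cd79a fell by 1.60 (SE 0.22, 3.04-fold lower, adjusted p = 0.00277) and Cd79b fell by 1.58 (SE 0.22, adjusted p = 0.00312). Vpreb3, which encodes a relative of the surrogate light chain, was low and scattered, at 3.51, 1.02 and 1.18 CPM in busulfan + AOS, 1.97, 3.10 and 1.23 CPM in busulfan, 2.50, 4.79 and 5.20 CPM in AOS and 5.30, 3.95 and 3.07 CPM in control lungs. Its groups overlapped, and its change of -1.05 (SE 0.36) did not pass (adjusted p = 0.0828).

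Of the surface receptors, the sialic acid-binding inhibitory lectins Cd22 and Siglecg fell by 1.52 (SE 0.20, adjusted p = 0.00269) and 1.60 (SE 0.23, adjusted p = 0.00326). Cd22 (chr7:30865404-30880342) had 4.70, 5.74 and 8.36 CPM in busulfan + AOS, 11.0, 8.62 and 9.68 CPM in busulfan, 24.3, 14.1 and 19.1 CPM in AOS and 16.9, 30.9 and 30.8 CPM in control lungs. All busulfan + AOS values of Cd22 lay under all busulfan values. The Fc receptor-like gene Fcrl1 (chr3:87376353-87403967) had the smallest p among the members, with 1.63, 1.44 and 1.53 CPM in busulfan + AOS, 1.97, 1.76 and 1.47 CPM in busulfan, 4.22, 3.57 and 5.51 CPM in AOS and 3.86, 6.75 and 6.03 CPM in control lungs. Its libraries with busulfan were tightly grouped and it fell by 1.60 (SE 0.18, 3.03-fold lower, adjusted p = 0.00102). Fcer2a, the CD23 receptor for immunoglobulin E, showed the deepest average change of the set, -1.999 (SE 0.27, adjusted p = 0.00269), with 1.63 to 3.36 CPM in busulfan + AOS, 3.22 to 6.70 CPM in busulfan, 9.33 to 12.6 CPM in AOS and 9.04 to 19.4 CPM in control lungs. Fcrla, an intracellular member of the Fc receptor-like family, fell by 1.83 (SE 0.29), Ms4a1, which encodes CD20, by 1.48 (SE 0.26), and Fcmr, the receptor for immunoglobulin M, by 1.45 (SE 0.27). Cd72, an inhibitory C-type lectin, was the other B-restricted member not called. It had 2.13, 3.77 and 5.42 CPM in busulfan + AOS, 3.05, 2.98 and 2.33 CPM in busulfan, 4.16, 5.996 and 4.71 CPM in AOS and 4.10, 6.26 and 7.04 CPM in control lungs. Only the busulfan libraries were all below the controls, and busulfan + AOS replicate 3 exceeded 2 AOS libraries (average -0.72, SE 0.23, adjusted p = 0.0655).

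Among broadly expressed surface members, the tetraspanin gene Cd37 fell by 1.06 (SE 0.21, adjusted p = 0.0128) and Ly6d, a GPI-anchored protein of early B cells and of epithelia, by 1.37 (SE 0.28, adjusted p = 0.0138). Ly6d had 2.00, 3.65 and 4.59 CPM in busulfan + AOS, 1.37, 2.55 and 4.66 CPM in busulfan, 6.48, 8.60 and 8.63 CPM in AOS and 7.23, 9.31 and 8.22 CPM in control lungs. The libraries with busulfan lay below all others. The summed level of 5 basal and squamous epithelium markers was 2.18 to 10.6, 1.53 to 2.27, 1.33 to 2.97 and 1.95 to 5.84 CPM in the same order of groups. Cd180, a Toll-like receptor relative of B cells and myeloid cells, averaged -0.92 (SE 0.32, adjusted p = 0.0851), with 1.50 to 7.42 CPM within busulfan + AOS lungs alone. Btla, an inhibitory receptor shared by B and T cells, averaged -0.40 (SE 0.15, adjusted p = 0.112).

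The tumour necrosis factor receptor family divided by class. Tnfrsf13c, the receptor for the B cell survival factor BAFF, fell by 1.58 (SE 0.32, 2.99-fold lower, adjusted p = 0.0133). It had 0.814, 1.50 and 1.83 CPM in busulfan + AOS, 3.29, 1.21 and 2.33 CPM in busulfan, 5.77, 3.45 and 5.32 CPM in AOS and 3.01, 7.66 and 6.80 CPM in control lungs, and the highest busulfan library exceeded the lowest control. Tnfrsf13b, which encodes TACI, fell by 1.10 (SE 0.19, adjusted p = 0.00744). Cd40, the costimulatory receptor that macrophages, dendritic cells and endothelium also carry, had 13.9 ± 2.27 CPM in busulfan + AOS, 14.9 ± 1.62 CPM in busulfan, 16.1 ± 1.26 CPM in AOS and 15.3 ± 1.79 CPM in control lungs. Its difference of -0.13 (SE 0.10, adjusted p = 0.418) was within the spread.

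The intracellular signalling members ran along the same gradient. The Src family kinase gene Blk fell by 1.28 (SE 0.26, adjusted p = 0.0138) and Bank1, a scaffold of B cell receptor signalling, by 1.66 (SE 0.25, adjusted p = 0.00424). Blnk, the adaptor that also serves macrophages, fell by 0.85 (SE 0.19, adjusted p = 0.0208). Ralgps2, a Ral exchange factor, fell by 0.39 (SE 0.09, adjusted p = 0.0217), with busulfan replicate 1 (30.4 CPM) above control replicate 1 (29.8 CPM). Blnk lost its call without control replicate 2 or busulfan + AOS replicate 2 (adjusted p up to 0.0543), and Ralgps2 without control replicate 2 or busulfan replicate 3 (up to 0.0523). The kinase gene Btk (-0.54, SE 0.21, adjusted p = 0.1198) and Plcg2 (-0.36, SE 0.12, adjusted p = 0.0828), both used by myeloid cells, were not called.

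The Ras exchange factor gene Rasgrp3 and Swap70, an actin- and Rac-binding exchange factor, had, with Cd40, the smallest average differences of the set. Swap70 (chr7:110221703-110283506) had 114, 126 and 105 CPM in busulfan + AOS, 102, 109.9 and 114 CPM in busulfan, 121, 108 and 116 CPM in AOS and 104, 117 and 123 CPM in control lungs. Rasgrp3 had 158, 179 and 174 CPM in busulfan + AOS, 158, 112 and 173 CPM in busulfan, 174, 178 and 162 CPM in AOS and 183, 171 and 189.9 CPM in control lungs. The 4 groups of each gene overlapped, apart from the low busulfan replicate 2 of Rasgrp3. The average differences were -0.04 (SE 0.06, adjusted p = 0.692) and -0.15 (SE 0.09, adjusted p = 0.292).

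Relative to Cd79a, most B-restricted members held a narrow ratio while Cd79a itself spanned 8.50-fold over the 12 libraries. The ratio of the 16 other B-restricted members varied over a median of 1.85-fold, from 1.44-fold for Cd79b to 8.97-fold for Vpreb3, and 10 of the 16 stayed within 2-fold. Siglecg, Fcmr, Cd22 and Ms4a1 spanned 1.46-, 1.47-, 1.48- and 1.49-fold. The 14 broadly expressed members varied over a median of 4.55-fold and up to 8.27-fold for Swap70, and Bcl11a, at 1.73-fold, was the only one within 2-fold. These ratios share the Cd79a value and the depth of each library and are given as a description.

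**Figure D4:**
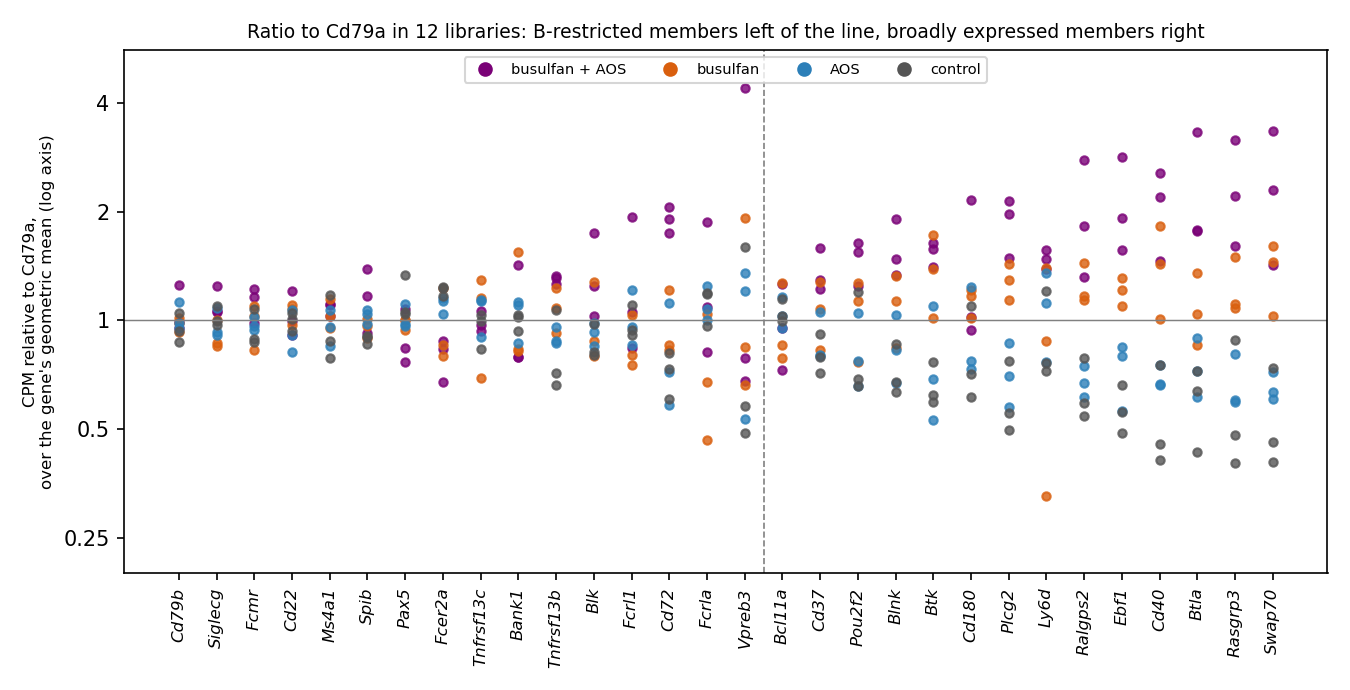
CPM of each member over the CPM of Cd79a in the same library, divided by the member's geometric mean of that ratio (y axis, log scale), for B-restricted members left of the dashed line and broadly expressed members right of it. Each column has 12 points coloured by group, and their spread runs from 1.44-fold for Cd79b to 8.97-fold for Vpreb3 on the left and from 1.73-fold for Bcl11a to 8.27-fold for Swap70 on the right.

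Libraries of 1 group also differed together. Control replicate 1 was the lowest control in 16 of 17 B-restricted and 13 of 14 broadly expressed members. AOS replicate 2 was the lowest of its group in 15 of the 17, busulfan replicate 1 the highest in 14 and busulfan + AOS replicate 3 the highest in 14. Library totals were 16209221 to 17168764 counts. Liver markers summed to 1002 CPM in control replicate 3 and 701 CPM in busulfan + AOS replicate 1, and skeletal muscle markers to 1936 CPM in control replicate 2. The part of these tissues in the member levels was not tested.

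Set against untreated lungs, the combined treatment gave the largest class medians of the comparisons made. In busulfan + AOS against control lungs 19 of 31 members were lower, 15 B-restricted and 4 broadly expressed (Cd37, Pou2f2, Ralgps2 and Bcl11a), and 0 were higher, against 1.65% of all genes called lower, 2.43% higher and 4.08% in either direction. This comparison shares its libraries with those above. The median log2 fold change was -1.99 in the B-restricted and -0.69 in the broadly expressed class. Fcer2a stood at -2.72 (SE 0.39, 6.60-fold lower, edgeR adjusted p = 0.00787), Pax5 at -2.54 (SE 0.33, 5.80-fold lower) and Bank1 at -2.22 (SE 0.36, 4.67-fold lower). Leaving out busulfan + AOS replicate 1 gave 9 calls and replicate 2 of that group 6, and leaving out control replicate 2 gave 7 and control replicate 3 gave 9. Cd79a, Pax5, Cd22, Fcer2a, Spib and Fcrl1 kept their calls in all 12 fits that left out a library.

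AOS alone gave no call. In AOS against control lungs 0 of 31 members passed edgeR's test, as did 0% of all genes tested. At an unadjusted p under 0.05 there were 0 of 31 members and 642 of 15863 genes, and DESeq2 and limma-voom also called 0 members. The member differences lay between -0.58 (Pax5, SE 0.30) and 0.08 (Cd40, SE 0.14), 27 of 31 were negative, and the class medians were -0.34 and -0.11. Without control replicate 2 these medians were -0.13 and -0.02, and without control replicate 1 they were -0.60 and -0.22. Pou2f2 alone had all AOS libraries below all controls, with 7.37, 8.84 and 7.95 CPM in AOS and 9.52, 10.7 and 10.3 CPM in control lungs, a pattern of 4.78% of all genes.

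AOS given after busulfan was not followed by a called difference either. In busulfan + AOS against busulfan lungs 0 of 31 members and 0% of all genes passed edgeR's test, and DESeq2 and limma-voom called 0 members. At an unadjusted p under 0.05 there were 1006 of 15863 genes and 2 of 31 members, Pax5 (-0.80, SE 0.33) and Fcer2a (-0.92, SE 0.39), both with an edgeR adjusted p = 0.769. On the CPM scale Pax5 and Cd22 had all busulfan + AOS libraries below all busulfan libraries, as did 5.56% of all genes tested. In FPKM this held for Cd22 but not for Pax5. Pax5 had 0.63, 0.46 and 0.76 FPKM in busulfan + AOS and 0.94, 0.67 and 0.61 FPKM in busulfan lungs. The class medians were -0.41 for B-restricted and -0.08 for broadly expressed members, and Cd72 and Btla had the highest values, 0.44 (SE 0.33) and 0.38 (SE 0.22). These medians moved with single libraries. The B-restricted median was -0.24 without busulfan replicate 1, -0.62 without replicate 2 of that group and -0.71 when busulfan + AOS replicate 3 was left out. The broadly expressed median was 0.07 without busulfan + AOS replicate 1, -0.17 without replicate 3 of that group and -0.02 without busulfan replicate 1.

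The interaction, the busulfan effect with AOS minus that without it, was called for 0 members and 0% of all genes by edgeR, with 0 members at an unadjusted p under 0.05 and 0 by DESeq2 and limma-voom. Member values ran from -0.45 (Tnfrsf13c, SE 0.63) to 0.66 (Cd72, SE 0.46). For Cd79a the interaction was -0.21 (SE 0.43). With SEs of this size a modest change of the busulfan effect by AOS was not detectable in these libraries.

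Other genes of the B cell receptor pathway were taken from a separate list. Of 25 measured genes 8 were lower and 1 higher in the busulfan average, against 4.81% of all genes tested lower and 7.02% higher. The median log2 fold change of the 25 was -0.25, against -0.01 over all genes tested. The gene called higher, Cd81, was also called higher in each of the 2 separate comparisons. Cr2, a complement receptor of mature B cells, fell by 1.36 (SE 0.24, edgeR adjusted p = 0.00717). Dok3, an inhibitory adaptor of B cells and myeloid cells, fell by 0.61 (SE 0.11, adjusted p = 0.00961). Cd81, a tetraspanin that most cells express, rose by 0.28 (SE 0.04, adjusted p = 0.00269), with 335 to 361 CPM in busulfan + AOS, 361 to 386 CPM in busulfan, 281 to 305 CPM in AOS and 293 to 303 CPM in control lungs. Ptpn6, Prkcb, Malt1 and Hvcn1 were also called lower. Lyn, Syk and Vav1, which act early in the cascade in many blood cells, were not called.

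Markers of other cells that make some of the members were counted in the same way. In the busulfan average 4.81% of all genes tested were called lower and 7.02% higher. T cell markers had 1 of 17 lower (median -0.22), natural killer cell markers 1 of 9 (median -0.72) and plasmacytoid dendritic cell markers 2 of 8 (Siglech and Pacsin1, median -0.44). Macrophage and monocyte markers had 0 of 14 lower and 1 higher (median 0.03). Plasma cell markers had 1 of 10 lower, Pou2af1, and 1 higher, Xbp1 (median 0.03), and germinal centre markers 0 lower and 2 higher (Fas and Mybl1) of 5 tested. Summed T cell markers were 99.7 to 148 CPM in busulfan + AOS, 101 to 131 CPM in busulfan, 127 to 144 CPM in AOS and 124 to 174 CPM in control lungs. Natural killer cell markers summed to 34.3 to 67.9, 26.8 to 59.8, 49.4 to 87.7 and 51.5 to 75.0 CPM in the same order. Busulfan replicates 2 and 3, at 26.8 and 27.7 CPM, were below every control. In both sums the libraries with and without busulfan overlapped, while for the B-restricted sums they did not. Plasmacytoid dendritic cell markers summed to 237 to 254, 223 to 303, 248 to 279.9 and 278 to 323 CPM in the same order. Of that sum, Tcf4 alone had 164 to 217 CPM over the 12 libraries. Siglech had 1.06 to 1.50, 0.850 to 1.73, 2.62 to 3.67 and 3.19 to 4.68 CPM. Pacsin1 had 0.359 to 0.626, 0.538 to 0.552, 0.979 to 1.25 and 0.904 to 1.30 CPM. For these 2 genes every library with busulfan was below every other, a pattern of 2.61% of all genes tested. The rest of that list was not called. Of 9 B cell precursor genes 3 had enough counts to be tested, and 0 were called (median -0.12). Among the 9, Rag2, Igll1 and Vpreb2 were at 0 to 0.178 CPM in every library, near the floor of 3 counts (0.177 to 0.188 CPM). Rag1 reached 1.39 CPM in AOS replicate 2, Dntt 0.545 CPM in that library and Vpreb1 0.607 CPM in busulfan replicate 2, and Il7r, Bst1 and Sox4, which other cells also express, were at 8.77 to 122 CPM. The part of these cells in the member levels was not tested.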

How the data were processed

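RNA-seq of 12 lung libraries was used as deposited, with groups and replicate numbers read from the titles. The authors deposited estimated counts per gene and library without normalisation (75.9 to 77.1% of values whole) and FPKM values. That unit was inferred from genes with higher counts only. Dividing their counts by the library total and by a fixed gene length typically came close to the deposited FPKM. The implied lengths of these genes had a median coefficient of variation of 0.678%. A fixed length did not hold for every member. Pax5 had 1.75 CPM and 0.63 FPKM in busulfan + AOS replicate 1, but 3.80 CPM and 0.61 FPKM in busulfan replicate 3. Per the submitters' processing notes the build was mm10. Aligner, counting program and strand setting: not given in the sources used here. Reads from genes that overlap, or from antisense genes, may therefore be mixed.

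Estimated counts were rounded, filtered with filterByExpr and scaled by TMM (factors 0.963 to 1.03). All 12 libraries entered a single fit with a mean for each of the 4 groups (common biological coefficient of variation 0.229), and contrasts were tested with edgeR 4.0.16 in R 4.3.3, with Benjamini-Hochberg adjustment over 15863 genes and calls under 0.05. The SE is the size of the log2 fold change over the square root of the F statistic (median 0.132 over all genes tested in busulfan against control). The busulfan average is the mean of the effects with and without AOS. CPM are TMM-scaled. Totals were 16209221 to 17168764 counts, and 3 counts, the floor that 0 counts allow, equal 0.177 to 0.188 CPM, for counting error only. Scripts were tested on simulated data. Within groups, every pair of libraries differed beyond sampling noise (chi-square over its degrees of freedom 18.2 to 40.3).

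Alternatives were DESeq2 1.42.0, limma-voom (limma 3.58.1), upper-quartile factors, no low-count filter, a fit of only the groups compared, a replicate block, and leaving out each library. Members, classes, lists and the average were chosen with earlier results of these data known. All members are named, and of the 25 other pathway genes the 4 with the smallest p in the busulfan average were to have values; some called genes of that list count in its totals but are not reported here. Genes of the other lists that are named without values, and Siglech, Pacsin1 and Tcf4, were named after their results were seen. Promoters and coordinates are from RefSeq GRCm38.p6, with exons of GENCODE M21 used to end the windows. Figures used matplotlib 3.10.9, Python 3.11.15, numpy 2.4.6 and pandas 2.3.3.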

Additional observations from a re-analysis of the deposited data

How the results depend on the processing

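In the busulfan average 19 to 24 members were lower with each library left out in turn, 25 by DESeq2, 22 by limma-voom and 21 with upper-quartile factors, with no low-count filter and with the replicate block. The separate comparisons were less stable. In busulfan + AOS against AOS the 9 calls became 18 by DESeq2, 2 by limma-voom, 4 with the replicate block and 0 to 11 with a library left out. In busulfan against control the 7 calls became 20 by DESeq2, 1 by limma-voom, 0 with the replicate block, 0 with only the groups compared and 0 to 10 with a library left out. In busulfan + AOS against control the 19 calls became 9 with the replicate block, 5 with only the groups compared and 6 to 17 with a library left out. The fit with fewer groups has fewer degrees of freedom; the cause of the other shifts was not tested. In AOS against control, busulfan + AOS against busulfan and the interaction 0 members were called under every alternative run. No member called lower in the main analysis changed sign under these alternatives. Same-numbered libraries did not deviate together (correlations -0.227 to 0.152 over 18 pairs, against -0.280 to 0.255 over 36 pairs with different numbers). Of the 12 libraries 0 were closest to their own number. The numbers thus gave no sign of pairing, which a check on 3 libraries per group cannot exclude. The part of depth in the calls of members with few counts was not tested.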
